A study of Rattus norvegicus with 8 samples.

Results

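The genes described here encode tubulins, the subunits of microtubules, and proteins that bind, shape, cut or assemble microtubules. They were all probes on the array whose gene name was on a list of 44 such genes, whatever their values. Of the 44 names, 42 were found, on 56 probes and 74 of the 42877 spots that were no controls. For Crmp1 no probe carried the name, and Mapre2 was found only by accession, under the name LOC679221, so that it is given beside the others and not counted. Tubb2c is now called Tubb4b and Tubb4 is now called Tubb4a; the older names of the array are kept below.

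Microtubules are hollow polymers of alpha and beta tubulin pairs, and gamma tubulin starts new ones. Structural microtubule-associated proteins (MAPs) line the polymer in axons and dendrites, plus-end proteins ride on its growing tip, stathmins bind free tubulin and favour shrinkage, and severing enzymes cut it. In neurons these proteins build and maintain the processes along which hormone vesicles and organelles travel, and doublecortin marks neurons that are still migrating or growing.

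RNA of the hypothalamus, the brain region that controls the pituitary, feeding and reproduction, was compared between 4 female rats in estrus and 4 males. All were Sprague Dawley rats, 3 to 4 months old, housed singly with free access to chow and water, and no treatment is named. The study asked how the sexes differ in cytoskeletal genes. The 4 arrays of 1 slide each held 1 female and 1 male in different dyes, the animals of each number together. On arrays 1 and 3 the female was in Cy3 and the male in Cy5, and on arrays 2 and 4 the dyes were exchanged. A log2 ratio below is always female over male, and a log2 level is the normalised intensity of 1 animal in its own dye channel. Such a level may be set against other animals for the same probe but not against other probes. It keeps the dye effect of the probe, so a gap between animals in different dyes can hold that effect as well.

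Which transcript a probe reads matters most in the tubulins, whose coding sequences are close copies of each other, so the probes on which such comparisons rest are shown. All are 60-base sequences of the sense strand as the array files give them, placed by those files on the rat build rn4 and designed to spliced transcripts; exon borders were not used here. In the first pair, capitals mark the run that the Tuba1b and Tuba1c probes share.
Tuba1b: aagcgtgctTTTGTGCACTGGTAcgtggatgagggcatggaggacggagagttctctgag
Tuba1c: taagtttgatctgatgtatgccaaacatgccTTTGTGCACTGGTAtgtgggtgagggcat
The run is 14 bases long. This Tuba1b probe was placed at chr19:56546427-56546486 (plus strand), unlike the other Tuba1b probe, which lies on chromosome 7. The Tuba1c probe was placed at chr7:137817177-137817235 (plus strand). In the second pair the probes cover the end of the coding sequence, where alpha tubulins differ most, and end in the stop codons tag and taa. Capitals mark the longest run they share, of 8 bases.
Tuba4a: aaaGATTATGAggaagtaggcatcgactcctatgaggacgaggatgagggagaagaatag
Tuba8: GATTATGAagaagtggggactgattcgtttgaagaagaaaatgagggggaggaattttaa
Tuba4a lies at chr9:74496576-74496635 (minus strand) and Tuba8 on an unplaced piece, chr4_random:1618566-1618625 (minus strand). Tubb6 and Eml2 had the largest fitted difference in each direction at the brightest probe of a gene. Capitals in Tubb6 mark 25 bases that it shares with a probe of an unnamed transcript, and the Eml2 probe shares no run of 14 or more bases with any other probe.
Tubb6: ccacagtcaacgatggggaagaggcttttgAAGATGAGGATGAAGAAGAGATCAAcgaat
Eml2: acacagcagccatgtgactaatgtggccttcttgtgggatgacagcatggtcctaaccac
They lie at chr18:63928978-63929037 and chr1:78569977-78570036, both on the plus strand. The last pair shows a stathmin that was lower in females beside one that was not, and capitals mark the 7 bases that are their longest shared run.
Stmn4: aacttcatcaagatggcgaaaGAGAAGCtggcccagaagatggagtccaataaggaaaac
Stmn1: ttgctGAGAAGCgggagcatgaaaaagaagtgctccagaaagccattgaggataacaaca
Stmn4 lies at chr15:45794337-45794396 and Stmn1 at chr5:153231088-153231147, both on the plus strand. Of the 56 member probes, 24 share a run of at least 14 bases with some other probe and 3 share at least 20 bases (Tuba1a, Tuba1c and Tubb6). Probes were compared only with other probes, each a short part of its transcript. A match to the rest of another transcript would therefore not be seen. The partner of Tubb6 was well above background in 0 of 8 samples. The partners of Tuba1a and Tuba1c had log2 ratios of 0.02 ± 0.08 (SE, n = 4 arrays) and 0.02 ± 0.09 and were above background in 8 of 8 samples.

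Male 2 stood apart from the other animals. On array 2, 17 of 18 hypothalamic marker genes (such as Avp, Oxt and Pomc) were lower in male 2 than in female 2, with a median log2 ratio of 2.45, against medians of 0.26, 0.04 and -0.20 on arrays 1, 3 and 4. In the same array, 10 of 11 markers of cortex, hippocampus and striatum were higher in male 2, with a median of -1.67, against -0.31, 0.02 and -0.09 elsewhere. Among the 4 samples in Cy3, male 2 was below the 3 others for 16 of 18 hypothalamic markers and above them for 10 of 11 of the cortical list. Summed over the hypothalamic list, the level was 54437 intensity units in male 2, against 206332 to 443304 in the other males and 211606 to 424082 in females. For the cortical list it was 61453 in male 2, against 18334 to 20782 in the other males and 17773 to 28869 in females. No marker was at background in all 8 samples; among the hypothalamic markers, Sim1 and Otp were above it in 7 samples each and the rest in all 8. Male 4 had the highest sums of choroid plexus and ependyma markers (61001, against 14427 to 22696 in the other 7 animals) and of pituitary markers (158448, against 20158 to 107920). The sums were not shared by all genes of these lists. On array 4, 5 of 8 choroid plexus and ependyma markers were higher in male 4 than in female 4 and 3 were lower (median log2 ratio -0.19). For the pituitary list, 3 of 8 were higher in male 4 and 5 lower (median 0.12). The part of these differences in the results below was not tested, and for part of the members values are also given without array 2. In such bulk RNA, fewer cells of a type and less RNA per cell cannot be told apart.

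Among the 42 members, Eml2, Clasp2, Stmn4 and Map1a had the lowest female over male ratios for their spread, and Tubb6 and Dcx the highest. None passed the test after adjustment over all probes: limma called 0 of 42 members and 0 of 14602 genes at an adjusted p under 0.05. At an unadjusted p under 0.05, 6 of 42 members (14.3%) were called, beside 8.52% of all genes. These were 2 higher in females (5.01% of all genes) and 4 lower (3.51% of all genes), and each had an adjusted p of 0.555. The median log2 ratio was -0.04 over the members and 0.02 over all genes. Above 0 lay 18 members (42.9%, beside 56.2% of all genes) and below it 24. With the authors' value table both medians were -0.07. The split of the calls by direction moved with the scaling. Where the reported fit called 731 of all genes higher and 513 lower, median centring called 244 and 532 (members 0 and 4), the scanner software's log ratio 430 and 616 (members 1 and 4), and the authors' value table called 156 and 1012 (members 0 and 4). With the row trend removed it was 542 and 656 (members 1 and 4). Without array 2, 9 members were called at the unadjusted threshold (8.06% of all genes), and without arrays 1, 3 or 4 the count was 2 (4.07% of all genes), 2 (1.99%) and 14 (31.1%). Without array 4, 3 members also passed after adjustment, beside 7.53% of all genes. These were Dclk1 (log2 ratio -0.74, adjusted p = 0.033), Stmn4 (-0.60, adjusted p = 0.043) and Tuba8 (-0.74, adjusted p = 0.036). In that fit array 2, which held male 2, was the only array with the female in Cy5. It therefore weighed as much as arrays 1 and 3 together and added nothing to the residual spread behind these p-values. The ratio had a single sign on all 4 arrays for 5 of 40 members measured on every array (12.5%; 10.6% of all genes): Map1a, Clasp2, Stmn4, Tubb6 and Tppp.

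**Figure D1:**
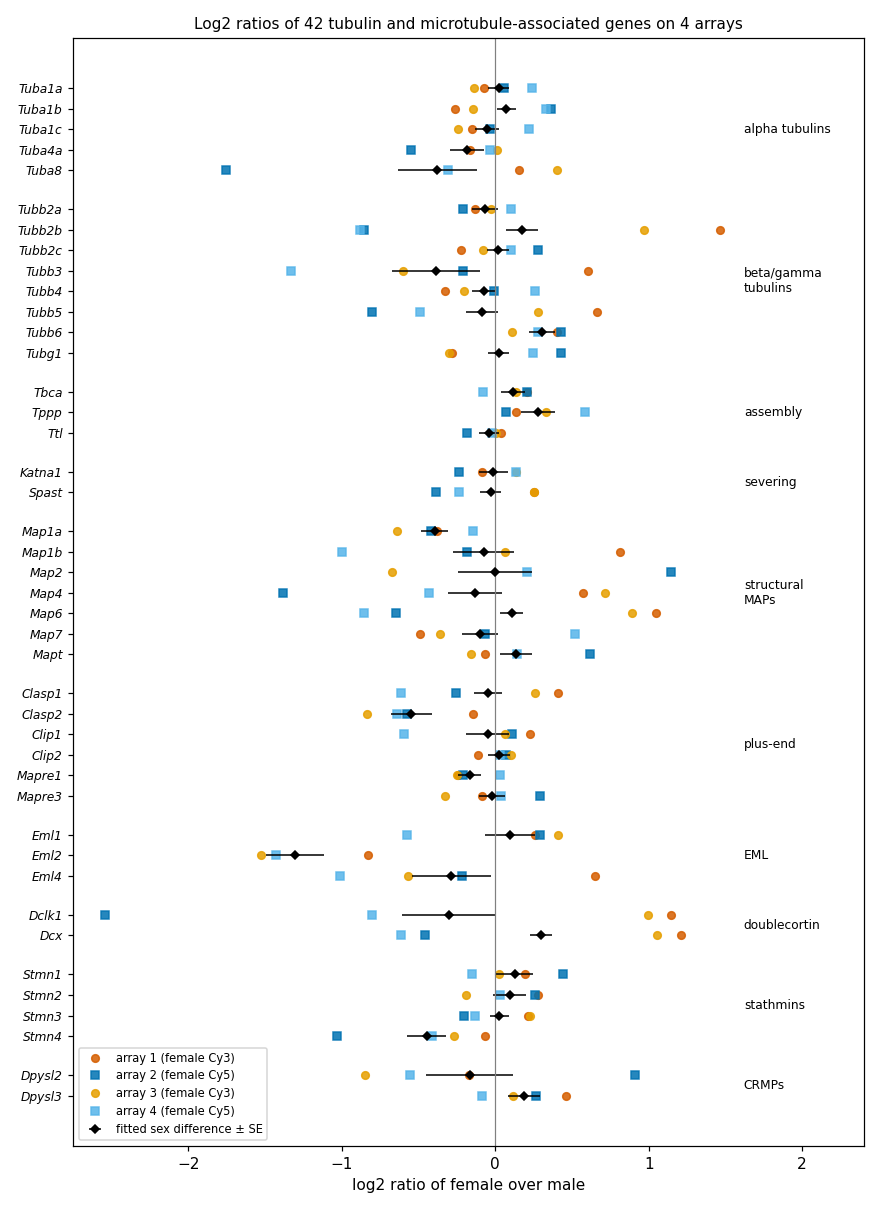
Log2 ratio of female over male for the 42 members, by role: coloured points are the 4 arrays (circles where the female carried Cy3, squares where she carried Cy5) and black diamonds the fitted difference with its standard error. The points of most genes lie on both sides of 0, while those of Map1a, Clasp2 and Stmn4 all lie below it and those of Tubb6 and Tppp above it.

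The 5 alpha tubulins, which pair with beta tubulin to form the building block of the polymer, had fitted log2 ratios of -0.38 to 0.07, and 0 of 5 passed the unadjusted test. Tuba4a had log2 ratios of -0.16, -0.55, 0.01 and -0.04 on arrays 1 to 4 and a fitted ratio of -0.18 ± 0.11 (adjusted p = 0.575). Its level was 15.37 in male 2 and 14.51 to 14.82 in the 7 other animals. Only male 2 was high, and without array 2 the ratio was -0.06. Tuba8, a divergent alpha tubulin, had levels of 9.80, 10.23, 10.11 and 9.74 in females 1 to 4 and 9.64, 11.99, 9.71 and 10.04 in males 1 to 4. The sexes overlapped and male 2 was far above the rest. The fitted ratio was -0.38 ± 0.26 (adjusted p = 0.599), and -0.01 (adjusted p = 0.971) without array 2. Tuba1a, Tuba1b and Tuba1c, the main alpha tubulins of brain tissue, had fitted ratios of 0.02 ± 0.07, 0.07 ± 0.06 and -0.05 ± 0.08. For Tuba1b, the ratios were -0.26, 0.37, -0.15 and 0.33 on arrays 1 to 4. They were negative where the female carried Cy3 and positive where she carried Cy5, and the second Tuba1b probe, the one shown above, gave -0.01 ± 0.08. The other Tuba1c probe gave -0.08 ± 0.11, and signal from close copies cannot be told apart by these probes.

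Of the 8 beta and gamma tubulins, Tubb6 was called higher in females at the unadjusted threshold and the other 7 were not. Tubb6, a beta tubulin found in many tissues, had levels of 8.85, 8.57, 8.57 and 8.92 in females 1 to 4 and of 8.45, 8.14, 8.46 and 8.64 in males 1 to 4. Each female was above the male of her array, by 0.40, 0.43, 0.11 and 0.28, but male 4 lay within the range of the females. The fitted difference was 0.30 ± 0.08 (1.23-fold, adjusted p = 0.555), and 0.27 (adjusted p = 0.598) without array 2. Without array 1 it was 0.23 (adjusted p = 0.950, no longer under the unadjusted threshold).

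Tubb2b, a beta tubulin of young neurons, had ratios of 1.47, -0.86, 0.97 and -0.88 on arrays 1 to 4. The sign followed the dye, and the fitted ratio was 0.18 ± 0.10 (adjusted p = 0.574). Tubb3, the neuron-specific beta tubulin, had ratios of 0.60, -0.21, -0.60 and -1.33 and a fitted ratio of -0.39 ± 0.29 (adjusted p = 0.614). Its arrays disagreed in sign and size, with levels of 12.83 to 13.79 in females and 13.05 to 14.37 in males. Tubb2a (-0.07 ± 0.08), Tubb4 (-0.07 ± 0.08), Tubb5 (-0.09 ± 0.10) and the gamma tubulin Tubg1 (0.02 ± 0.07) differed by less than 0.10 between the sexes. For Tubb2c the bright probe gave 0.02 ± 0.07 and a dimmer probe 0.68 ± 0.37, the widest gap between probes of a member (0.66). The dimmer probe read 8.94 in male 2 and 11.10 to 12.30 in the 7 other animals, so that its ratio on array 2 was 2.58.

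Proteins that help tubulin to assemble, or that modify it, showed no call. Tppp, a protein of oligodendrocytes that promotes polymerization, had ratios of 0.14, 0.07, 0.33 and 0.58 on arrays 1 to 4. All 4 females were above their male, and the fitted difference was 0.28 ± 0.11 (adjusted p = 0.555). Without array 2 it was 0.41, under the unadjusted threshold (adjusted p = 0.598). The summed level of the oligodendrocyte markers measured in all samples (7 of 8), the cell type that holds most Tppp, was 157023 to 174719 in females and 173972 to 216381 in males; its part in the Tppp ratio was not tested. The chaperone Tbca had ratios of 0.21, 0.21, 0.13 and -0.08 and a fitted ratio of 0.12 ± 0.08. Ttl, which puts tyrosine back on the alpha tubulin tail, had ratios of 0.04, -0.19, 0.00 and -0.02 and gave -0.04 ± 0.07. The severing enzymes Katna1 (katanin) and Spast (spastin) gave -0.01 ± 0.10 and -0.03 ± 0.07, and a dimmer Spast probe gave -0.22 ± 0.10 (adjusted p = 0.555).

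Of the 7 structural MAPs, Map1a was called lower in females. Map1a, a MAP of mature dendrites and axons, had levels of 11.88, 12.09, 11.90 and 12.08 in females 1 to 4 and of 12.26, 12.51, 12.54 and 12.22 in males 1 to 4. All males were above all females. The fitted difference was -0.40 ± 0.09 (1.32-fold lower, adjusted p = 0.555), and -0.33 (adjusted p = 0.598) without array 2. Without array 3 it was -0.33 (adjusted p = 0.980, no longer under the unadjusted threshold). Its developmental relative Map1b gave -0.08 ± 0.20, with ratios from -0.997 to 0.81.

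Map4, a MAP of many cell types, was read by a pair of probes. The brighter probe had ratios of 0.57, -1.39, 0.71 and -0.43 on arrays 1 to 4 and a fitted ratio of -0.13 ± 0.18 (adjusted p = 0.751). Its level was 14.99 in male 2, against 13.36 to 14.15 in the 7 others, and without array 2 the ratio was 0.10. The dimmer probe had ratios of 0.05, -0.35, 0.02 and -0.42 and a fitted ratio of -0.17 ± 0.06, under the unadjusted threshold (adjusted p = 0.555). Tau (Mapt), which stabilises axonal microtubules, gave 0.13 ± 0.10 and 0.02 ± 0.09 at its probes, with ratios of -0.07, 0.62, -0.16 and 0.14 at the brighter one. Map2, the dendritic MAP, was left without array 1, where its spot was an outlier, and gave 0.00 ± 0.24 (n = 3 arrays). Map7 gave -0.10 ± 0.12. Map6, which protects microtubules from cold, had ratios of 1.05, -0.65, 0.89 and -0.86 at its brighter probe, following the dye. Its fitted ratios were 0.11 ± 0.08 at that probe and 0.04 ± 0.07 at the other.

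Of the 6 end-binding and plus-end genes, Clasp2 was called lower in females. At the brightest probes 5 of 6 lay below 0 and 1 above, where 56.2% of all genes lay above 0. Clasp1, Clip1 and Mapre3 were close to 0, at -0.05, -0.05 and -0.02. Clasp2, which anchors and rescues growing ends, had levels of 11.35, 10.41, 10.89 and 10.85 in females 1 to 4 and of 11.50, 10.98, 11.72 and 11.49 in males 1 to 4. Each female was below the male of her array, with ratios of -0.14, -0.58, -0.83 and -0.64, although female 1 was above male 2. The fitted difference was -0.55 ± 0.13 (1.46-fold lower, adjusted p = 0.555), and -0.57 without array 2. When single arrays were left out it ranged from -0.72 to -0.38. Its relative Clasp1 gave -0.05 ± 0.09.

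Mapre1, the end-binding protein EB1, had levels of 12.46 to 12.64 in females and of 12.60 to 12.85 in males, and ratios of -0.25, -0.21, -0.25 and 0.03 on arrays 1 to 4. The females on arrays 1 to 3 were lower than their males. The fitted ratio was -0.17 ± 0.07 (adjusted p = 0.555). Clip1, which links growing ends to other structures, gave -0.05 ± 0.14 at its brighter probe. The dimmer one had ratios of 0.09, -0.30, -0.05 and -0.53 and gave -0.20 ± 0.08 (adjusted p = 0.555). Without array 2 the brighter probe gave -0.23, under the unadjusted threshold (adjusted p = 0.598). Clip2 gave 0.02 ± 0.07 and -0.15 ± 0.08 at its probes, of opposite sign, and Mapre3 gave -0.02 ± 0.09. The probe of Mapre2, listed as LOC679221, gave -0.04 ± 0.08.

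Eml2 had the lowest ratio of all members. It belongs to the EML family, proteins that bind microtubules and influence their stability. Its levels were 11.10, 10.43 and 10.57 in females 1, 3 and 4 and 11.93, 11.96 and 11.99 in males 1, 3 and 4. All measured males were above all measured females, and the males lay closer to each other than the females did. The spot on array 2 was an outlier and left out, so that male 2 has no part in this value. The fitted difference was -1.30 ± 0.19 (2.47-fold lower, n = 3 arrays, adjusted p = 0.555), and -1.03 with the outlier spot kept. Array 4 was the only array left with the female in Cy5, so the residual spread came from arrays 1 and 3 alone, with a single degree of freedom. No fit could be made without array 1, 3 or 4. Its relatives Eml1 (ratios of 0.26, 0.29, 0.41 and -0.57) and Eml4 (0.65, -0.22, -0.57 and -1.01) changed sign between arrays and gave 0.10 ± 0.16 and -0.29 ± 0.26. A second Eml4 probe did not pass the filter on dim probes.

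The doublecortin family was measured at brighter probes in rows 18 (Dcx) and 36 (Dclk1) of the array, where the median ratio of all spots followed the dye. Dcx, the marker of migrating and growing neurons, had levels of 10.34, 9.79, 10.36 and 9.57 in females 1 to 4 and of 9.13, 10.24, 9.30 and 10.19 in males 1 to 4. Animals labelled with Cy3 were above those labelled with Cy5 in both sexes. The ratios were 1.21, -0.46, 1.05 and -0.62, and with the dye in the model the fitted difference was 0.30 ± 0.07 (1.23-fold, adjusted p = 0.555). It was 0.26 (adjusted p = 0.598) without array 2 and, no longer under the unadjusted threshold, 0.26 without array 1 and 0.34 without array 3. A second Dcx probe, in row 292, gave -0.01 ± 0.07 with ratios of 0.05, -0.02, 0.11 and -0.17. That probe was dim, with levels of 6.66 to 6.82, and was well above background in 2 of 4 females and 4 of 4 males. Its ratio near 0 therefore says little about Dcx. Dclk1, a kinase with doublecortin domains, had ratios of 1.14, -2.54, 1.00 and -0.81 at the brighter probe and 0.33, -1.18, 0.51 and -0.11 at the other. Both probes were highest in male 2, and the fitted ratios were -0.30 ± 0.31 and -0.11 ± 0.20. Without array 2 the brighter probe gave 0.13.

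Of the 4 stathmins, Stmn4 was called lower in females. Its levels were 12.32, 11.67, 12.06 and 12.11 in females 1 to 4 and 12.39, 12.70, 12.33 and 12.53 in males 1 to 4. All males were above all females, although female 1 and male 3 were almost level. The ratios were -0.07, -1.03, -0.27 and -0.41, and the fitted difference was -0.45 ± 0.13 (1.36-fold lower, adjusted p = 0.555). It was -0.29 (adjusted p = 0.598) without array 2 and, no longer under the unadjusted threshold, -0.50 (adjusted p = 0.950) without array 1 and -0.40 (adjusted p = 0.980) without array 3. Stmn1, the widely expressed member, had ratios of 0.19, 0.44, 0.02 and -0.15 and a fitted ratio of 0.13 ± 0.12. Stmn2, the stathmin of growing axons, had ratios of 0.28, 0.26, -0.19 and 0.03 at the brighter probe and 0.06, -0.71, 0.17 and -0.16 at the other. The fitted ratios, 0.09 ± 0.11 and -0.16 ± 0.11, were of opposite sign. Stmn3 gave 0.03 ± 0.06.

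Collapsin response mediators carry tubulin and act in axon growth. Dpysl2 had ratios of -0.17, 0.91, -0.85 and -0.55 on arrays 1 to 4 and a fitted ratio of -0.17 ± 0.28. Female 2 was above her male and the 3 other females were below theirs, and without array 2 the ratio was -0.53, under the unadjusted threshold (adjusted p = 0.598). A dimmer Dpysl2 probe gave -0.12 ± 0.19. Dpysl3 had ratios of 0.46, 0.26, 0.12 and -0.09 and a fitted ratio of 0.19 ± 0.10 (adjusted p = 0.566). The size of this ratio at a dim probe depended on the processing. Over the alternatives it ran from 0.10 without array 2 to 0.50 with the authors' value table, and was never under the unadjusted threshold.

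**Figure D2:**
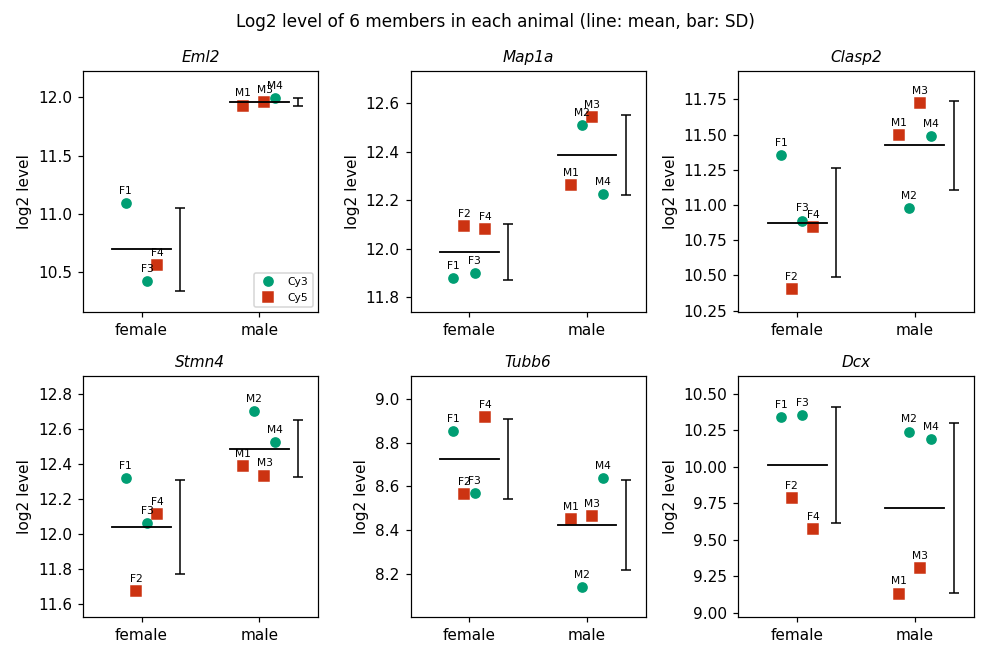
Log2 level in each animal for the 6 members with an unadjusted p under 0.05, green circles for Cy3 and red squares for Cy5, with the mean (line) and SD (bar) of each sex. Map1a, Stmn4 and, among the 3 pairs measured, Eml2 do not overlap between the sexes; Clasp2 and Tubb6 do, and the Dcx levels separate by dye and overlap between the sexes.

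After the fitted dye effect was taken out, the levels of females and males did not overlap for 4 of 40 members measured in all animals (10.0%, beside 6.21% of all genes). Dcx was the 1 with all females higher (3.85% of all genes), and Map1a, Mapre1 and Stmn4 were the 3 with all females lower (2.36% of all genes). Such adjusted levels are fitted to all 8 animals, so that an animal far from the rest also shifts the others of its dye.

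Many single-array ratios followed the dye. For 18 of 40 members (45.0%) the ratio was of 1 sign on arrays 1 and 3 and of the other on arrays 2 and 4, beside 42.4% of all genes. At an adjusted p under 0.05 limma called a dye effect for 4 of 42 members, beside 13.3% of all genes: Map6, Dcx, Tubb2b and Tubb5. Their spots lie in rows 14, 18, 23 and 29 of the 532 rows of the array. Over all spots, the median log2 ratio in rows 1 to 66 was 0.65, -0.25, 0.50 and -0.44 on arrays 1 to 4, and in rows 466 to 532 it was -0.13, 0.08, -0.15 and 0.11. In the authors' value table the same first rows had medians of 0.84, -0.94, 0.81 and -0.88. The fitted sex difference varied with row as well. For 1455 genes read by a single spot in rows 1 to 66, its median was 0.08. At an unadjusted p under 0.05, limma called 146 of them higher in females and 15 lower. In rows 466 to 532 the median over 1623 genes was 0.00, with 69 called higher and 90 lower.

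**Figure D3:**
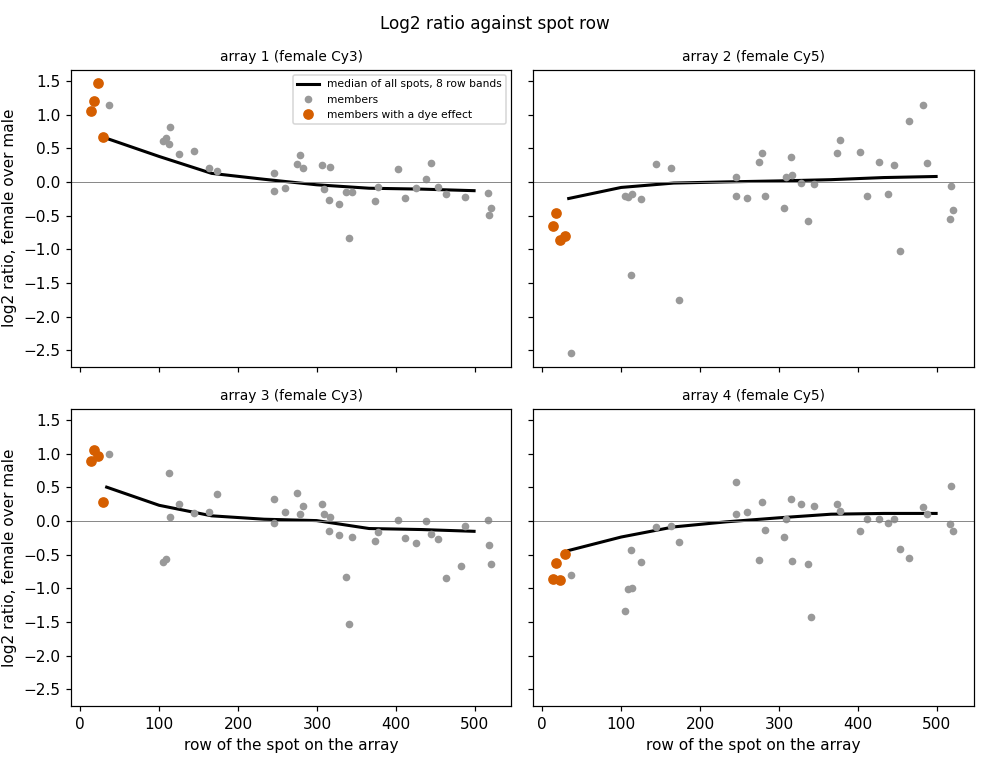
Log2 ratio of female over male against the row of the spot, for the 41 members on single spots at their brightest probe, on each array. The line is the median of all spots in 8 bands of rows, and the 4 members with a called dye effect (orange) all lie in the first 29 rows, above 0 on arrays 1 and 3 and below 0 on arrays 2 and 4.

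The same trend appeared among copies of a single probe. The dimmer Tubb2c probe is printed at 10 places. Its ratio on array 1 ran from 1.28 in row 1 to -0.17 in row 437, and on arrays 2, 3 and 4 from 1.53 to 3.19, from 0.20 to -1.22 and from -0.16 to 1.14. The Tuba1a probe, also at 10 places, ran on array 1 from 0.56 in row 17 to -0.34 in row 503, with an SD over its copies of 0.15 to 0.30 on the 4 arrays.

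**Figure D4:**
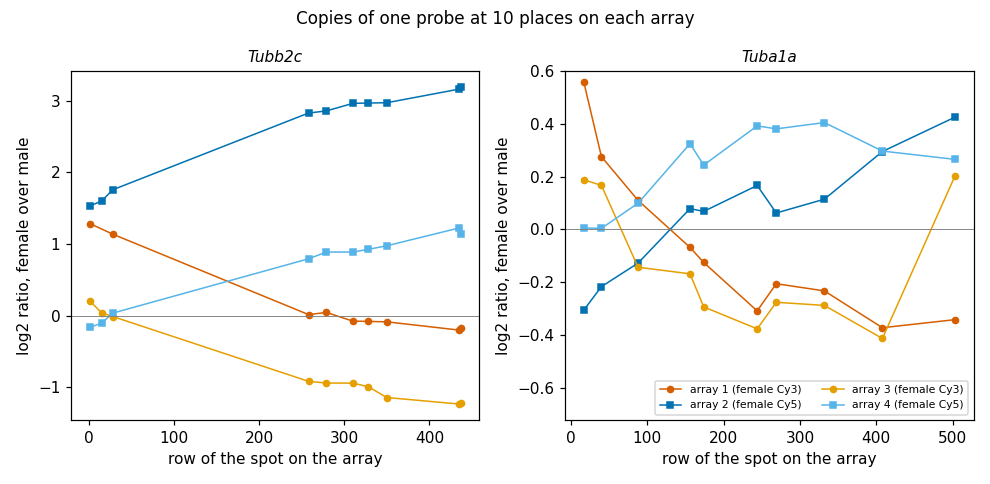
Log2 ratio of each copy of the 10-spot probes of Tubb2c (left) and Tuba1a (right) against its row, with a line for each array. Tubb2c copies far down the array (rows 258 to 437) have lower ratios on arrays 1 and 3, where females carried Cy3, and higher ones on arrays 2 and 4 than those in rows 1 to 28. The Tuba1a copies follow less evenly, and on array 3 the last copy stands above the first.

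A smooth trend of the ratio with row was therefore removed from each array as an added setting, chosen after the trend had been seen. The dye effect was then called for 0 of 42 members and 0% of all genes (1935 of 14602 before). The ratios of Eml2 (-1.31), Clasp2 (-0.55), Map1a (-0.39), Stmn4 (-0.44) and Tubb6 (0.29) moved by less than their standard errors and stayed under the unadjusted threshold. Dcx went to 0.15 and was no longer under the unadjusted threshold (adjusted p = 0.579), Tubb2b to 0.04 and Map6 to -0.04, while Tubb5 went from -0.09 to -0.22. In this setting 5 of 42 members were called (8.2% of all genes), 1 higher and 4 lower in females. The median was -0.04 over the members and 0.00 over all genes.

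Male 2 was the animal in which the members lay farthest from the mean of their sex, by a median of 0.17 after the dye effect was taken out, against 0.08 to 0.14 in the 7 others. Set against females 1 and 3 and male 4, which carried the same dye, its level lay outside their range for 30 of 40 members (75.0%; 75.9% of all genes). It was above their mean by 2.01 for Tuba8, 1.61 for Dclk1, 0.93 for Map4, 0.76 for Tuba4a, 0.72 for Map7 and 0.51 for Map1a. It was below their mean for Tubb3 (-0.76), Dpysl2 (-0.70) and Tubb6 (-0.55). A departure beyond 1 in either direction was seen for 2 of 40 members (5.00%) and for 7.51% of all genes. These departures go with the low hypothalamic and high cortical marker levels of the same animal, and the part of those levels in them was not tested.

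**Figure D5:**
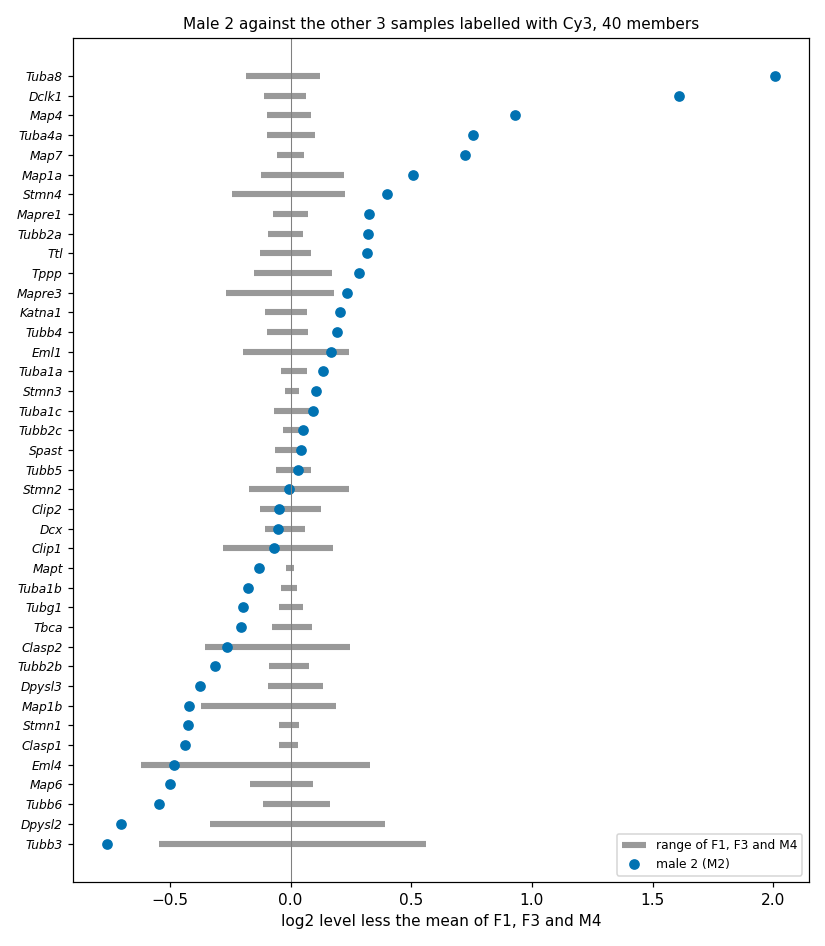
Log2 level of male 2 (blue points) less the mean of the other 3 samples labelled with Cy3, for the 40 members measured in all, with the range of those 3 as grey bars. Tuba8 and Dclk1 stand at 2.01 and 1.61.

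Other genes of the microtubule system were called at a share close to that of all genes. Of a list of 119 further genes 96 were tested, and at an unadjusted p under 0.05 there were 9 (9.38%, beside 8.52% of all genes), 5 higher in females and 4 lower, with a median log2 ratio of -0.01. Lower were the GTPase regulator Arhgef2 (-0.49 ± 0.11), Map7d2 (-0.47 ± 0.13), Tpgs2 of the polyglutamylase complex (-0.25 ± 0.07) and the plus-end protein Slain1 (-0.65 ± 0.21). Of these, Tpgs2 had a ratio below 0 on all 4 arrays. The others were above 0 on array 1 (Arhgef2 0.12, Map7d2 0.09 and Slain1 0.25). Arhgef2 and Map7d2 were lowest on array 2, which held male 2, at -1.07 and -1.19. Higher were Svbp, the partner of the tubulin tyrosine carboxypeptidases (0.26 ± 0.08), the tubulin glycylase Ttll3 (0.44 ± 0.14), Dclk3 (0.28 ± 0.09) and the folding factor Tbcb (0.24 ± 0.08). Ttll3 was higher in the female on all 4 arrays. Tbcb had ratios of -0.09, 0.72, -0.08 and 0.40 on arrays 1 to 4, with the sign following the dye. Svbp was below 0 on array 3 (-0.18) and Dclk3 on array 4 (-0.004). All 9 had an adjusted p of 0.555. Counts were 0 of the 8 gamma-tubulin ring genes, 0 of the 12 kinases and lissencephaly genes, 3 of 18 tubulin modifying genes and 4 of 24 other MAPs. Left out one at a time, arrays 1 to 4 gave 2, 9, 0 and 32 calls, beside 4.07%, 8.06%, 1.99% and 31.1% of all genes.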

How the data were processed

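Total RNA of 4 females and 4 males was labelled with Cy3 or Cy5 and hybridised in pairs to 4 two-colour arrays, which Agilent Feature Extraction 10.7.3.1 quantified, per the submitters' processing notes. The deposited mean and local background signals are intensity values per the file headers. The scanner software's deposited log ratio is a log10 of red over green. The authors' value table holds log2 values, equal to log2 of the background-subtracted median signal less 1 constant per column (within 0.01 for 100% of values), with column medians of 0. Signals less background had medians of 502 to 530 in Cy3 samples and 148 to 272 in Cy5 samples, with 77.6% to 87.0% of spots well above background and 0 saturated. The number of arrays limits precision. A p-value sets the fitted difference against the residual spread of the within-array ratios after sex and dye, moderated over all probes. That spread holds differences between animals and technical noise together.

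With limma 3.58.1 under R 4.3.3, mean signals were corrected by normexp (offset 50) and normalised by loess within arrays, giving controls weight 0 and dropping outlier spots before copies of a probe were averaged. Levels were scaled between arrays by Aquantile. Kept probes had over 0.5 of their spots well above background in every sample of a sex, which held for 55 of 56 member probes. The fit covered 21995 probes, with terms for sex and dye and Benjamini-Hochberg adjustment over all of them. A gene is its brightest probe (14602 genes). The array shared by a female and a male pairs them. Their deviations from sex and dye correlated at 0.61, 0.68, 0.46 and -0.08 over genes on arrays 1 to 4. The animals of an array differ in both sex and dye, so the fit by itself makes such deviations correlate above 0. Members, lists, tests and the rule for naming genes (in each role up to 3 with the smallest p, all with an unadjusted p under 0.05 or probes of opposite sign, and up to 4 of the wider list in each direction) were chosen with earlier results of these data known. The 16 alternatives, and 1 added later (ratios less a loess trend on spot row, span 0.2), are in the closing section. The steps were tested on simulated data. Plots come from matplotlib 3.10.9 and Python 3.11.15.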

Additional observations from a re-analysis of the deposited data

Results flagged for a closer look

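In 11 of 80 sets of 4 animals of a sex, an animal's level of a member, after the fitted dye effect was taken out, lay so far from the other 3 that the gap passed Dixon's critical value. Chance gives such a gap in about 1 in 20 sets of 4 independent values. The levels here are linked by the fitted dye effect, so the share over all genes, at the end of this paragraph, is the base to compare with. Male 2 was the animal in 6 of them. Its log2 level was 11.66 for Tuba8 (9.72 to 10.04 in the other males), 14.61 for Map4 (13.75 to 13.78), 15.31 for Tuba4a (14.65 to 14.73), 12.72 for Map7 (12.03 to 12.10) and 16.53 for Tubb2a (16.24 to 16.27). It was 11.20 for Clasp1, below the other males (11.64 to 11.71). Female 2, on the same array, was high for Eml1 at 11.14 (10.25 to 10.39 in the other females) and for Tubb2c at 16.53 (16.34 to 16.36), and low for Tuba1b at 17.08 (17.18 to 17.20). Male 3 was low for Spast at 10.69 (10.76 to 10.77 in the other males) and female 3 for Tuba1a at 16.56 (16.65 to 16.66 in the other females). Over all genes such gaps were seen in 7.02% of sets, for male 2 in 6.43% of 14487 genes, for female 2 in 2.59% and for each other animal in 0.545% to 1.58%.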

How the results depend on the processing

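The count of members past the adjusted threshold was 0 under the 13 alternatives that kept all arrays, and 0 to 3 when arrays were left out one at a time, with 3 without replicate 4. At the unadjusted threshold it was 4 to 6 under those 13 and 2 to 14 (2 without replicate 1 or 3, 14 without replicate 4) when arrays were left out; the median log2 ratio of the members was then -0.041 to 0.021, positive only without replicate 4. For the wider list the count of 9 became 3 without a dye term and 5 with the scanner software's log ratio or an intensity trend with a robust prior, and 0 to 32 when arrays were left out. Its median became -0.039 with median centring, -0.038 with the scanner's log ratio and -0.120 with the authors' value table, and was -0.03 to 0.00 when arrays were left out. The 4 members with a dye effect became 12 with median centring, 0 with the scanner's log ratio, 0 with the row trend removed, and 0 to 12 when arrays were left out. The pairing by array was dropped in a fit of single channels with no replicate block; 8 members then had a dye effect and 5 passed the unadjusted threshold, 1 higher in females in place of 2 (Tubb6 was lost) and 4 lower. The causes of these shifts were not tested. Of 706 ratios of single members under alternatives, 40 had the other sign than the value reported, in 24 genes, none of them past the adjusted threshold; Eml2, Map1a, Clasp2, Stmn4, Tubb6 and Dcx kept their sign throughout. The ratio was under the unadjusted threshold in 17 of 17 alternatives for Clasp2, 16 for Map1a and 14 of 17 for Stmn4. It was so in 13 for Tubb6, 9 for Dcx and all 14 that could be fitted for Eml2. For Eml2 the fit without replicate 2 used the same 3 arrays as the reported fit, so leaving out arrays put its ratio to no test. Dcx was lost without a dye term, with median centring, the scanner's log ratio, the authors' value table, the mean of a gene's probes and the row trend removed, and without replicate 1 or 3. Tubb6 was lost with median centring, the authors' value table, no replicate block and without replicate 1, Stmn4 without a dye term and without replicate 1 or 3, and Map1a without replicate 3. Fits without 1 array, and the reported fits of Eml2 and Map2, rest on a single residual degree of freedom. Eml2 could not be fitted without replicate 1, 3 or 4, nor Map2 without 2, 3 or 4.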
